A study of Homo sapiens with 18 samples.

Results

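The Sprouty genes SPRY1, SPRY2 and SPRY4 and the SPRED genes SPRED1, SPRED2 and SPRED3 were taken by gene symbol from the deposited count tables, 6 genes of 58735, and all 6 passed the filter on low counts in both tables. RNA sequencing had been run on A549 and H358, established human lung adenocarcinoma cell lines. The groups were A549 cells with a lentiviral short hairpin RNA against RAD21 (shRAD21), H358 cells with the hairpin (shRAD21), A549 cells overexpressing RAD21 (RAD21OE), and their controls with empty vector, named shNC in A549 and in H358 and EV in A549. Each of the 6 groups had 3 libraries, and nothing in the labels says whether these came from separate cultures. A p-value here reflects the scatter among the libraries of a group, pooled over the groups of a table. These libraries could be technical replicates. The hairpin sequence, the number of hairpins and whether the cells were pools or single clones are not stated in the labels. The study's title names RAD21, histone H3K4 trimethylation and ERK signalling in tumour progression.

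Sprouty and SPRED proteins are feedback inhibitors of receptor tyrosine kinase signalling. Sprouty proteins are known to become phosphorylated on a conserved tyrosine after growth factor stimulation, to bind adaptors such as GRB2 and the ubiquitin ligase CBL, and to dampen the path from receptors through RAS and RAF to ERK. SPRED proteins carry an EVH1 domain and bring neurofibromin, the RAS GTPase-activating protein encoded by NF1, to the plasma membrane, where it turns RAS off. SPRY2, SPRY4 and the phosphatase gene DUSP6 are themselves transcribed in response to ERK activity, which is why their transcripts are widely used as a readout of the pathway.

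The libraries of the knockdown held 15155077 to 19277568 counted reads and those of the overexpression 13024640 to 14276335. RAD21, the kleisin subunit of cohesin, averaged 121 ± 16.9 CPM (counts per 1e+06 reads) in A549 shRAD21 and 255 ± 2.01 CPM in A549 shNC, 413 ± 29.6 CPM in H358 shRAD21 and 587 ± 17.1 CPM in H358 shNC, and 1442 ± 118 CPM in RAD21OE and 199 ± 7.96 CPM in EV (SD, n = 3 each). CPM were computed with library sizes multiplied by their TMM factors. All 5 epithelial markers were present in each group, with sums of 4510 to 14000 CPM, and they were higher in A549 shRAD21 (11300 to 14000 CPM) than in A549 shNC (7120 to 7550 CPM), and higher in RAD21OE (10400 to 13600 CPM) than in EV (8230 to 8430 CPM). Of the 5 lung markers, 4 averaged under 1 CPM in every A549 group and 3 in both H358 groups. The summed markers of leukocytes lay between 2.86 and 9.4 CPM, those of fibroblasts between 15.8 and 47.6 CPM and those of endothelium between 0.136 and 18.5 CPM. CD3E and KDR were at 0 in all libraries of every A549 group, and COL1A2 and DCN in both H358 groups. Replicate 3 of A549 shRAD21 and replicate 3 of RAD21OE stood apart from the other libraries of their groups, with a median absolute log2 difference of 0.304 to 0.313 and of 0.231 to 0.269. In bulk samples such as these, fewer cells of a type and less RNA per cell cannot be told apart.

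On hg38, SPRY1 (ENSG00000164056) lies at chr4:123396795-123403760 on the plus strand, SPRY2 (ENSG00000136158) at chr13:80335976-80340951 on the minus strand and SPRY4 (ENSG00000187678) at chr5:142310427-142326455 on the minus strand. SPRED1 (ENSG00000166068) lies at chr15:38252326-38357249 on the plus strand, SPRED2 (ENSG00000198369) at chr2:65310851-65432637 on the minus strand and SPRED3 (ENSG00000188766) at chr19:38388421-38399587 on the plus strand. In GENCODE 29, 0% of the exon bases of each of the 6 genes is shared with another gene on either strand, so no other annotated gene shares their exons. Of the 6, SPRED1 had the lowest GC content in its longest transcript, 38.9%, and SPRED3 the highest, 58.8%.

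The upstream sequences of SPRY2 and SPRY4 are shown because these were the Sprouty genes that fell in A549 shRAD21, and that of SPRY1 because it differed most between the lines. They are RefSeq sequences of GRCh38.p14, read 5′ to 3′ on the strand of the gene, and hold only bases outside annotated exons. SPRY2 is shown from chr13:80341127-80341376 (minus strand), the 250 bases before its most upstream RefSeq start, and SPRY1 from chr4:123396545-123396794 (plus strand), again 250 bases before its most upstream start. For SPRY4, chr5:142324418-142324497 (minus strand) is shown, the 80 bases of its upstream window that no exon covers. They stop 170 bases before the RefSeq start and lie within the span of SPRY4 given above, between its annotated exons. Capitals mark GGGCGG or its reverse complement CCGCCC, the core bound by SP1.
SPRY2: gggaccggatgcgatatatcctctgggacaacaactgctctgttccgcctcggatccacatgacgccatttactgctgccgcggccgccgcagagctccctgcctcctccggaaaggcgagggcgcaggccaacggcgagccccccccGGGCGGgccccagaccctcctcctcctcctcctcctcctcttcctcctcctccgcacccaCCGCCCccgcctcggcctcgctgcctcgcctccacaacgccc
SPRY4: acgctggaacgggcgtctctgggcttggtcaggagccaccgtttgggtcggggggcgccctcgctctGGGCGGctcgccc
SPRY1: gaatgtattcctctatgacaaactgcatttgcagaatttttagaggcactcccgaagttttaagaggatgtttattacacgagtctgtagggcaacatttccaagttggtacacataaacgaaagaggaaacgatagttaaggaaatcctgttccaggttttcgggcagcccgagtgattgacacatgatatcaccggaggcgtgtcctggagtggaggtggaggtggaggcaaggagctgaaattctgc

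Over their 250 bases before the start, the SPRY2 starts held 23, 13 and 5 CpG from the most upstream on, the SPRY4 start 22 and the SPRY1 starts 8 and 24, against a median of 11 in 35116 RefSeq promoter windows of that length. RefSeq gave 11 starts for the 6 genes, and each window was searched on both strands. GGGCGG was found in 5 of the 11 windows, and 42.6% of all windows hold it. The ETS letters CCGGAAG were found in 1 of the 11, 67 bases before the second SPRY1 start, and 8.52% of all windows hold them. The AP-1 letters TGANTCA were found in 1 of the 11, a SPRED3 window with 0 GGGCGG matches, and 6.57% of all windows hold them. The CRE letters TGACGTC and the E-box CACGTG were found in 0 of the 11, and 3.12% and 6.34% of all windows hold them. A match is a description of these letters and shows no binding.

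In the control cells, H358 carried more Sprouty and SPRED mRNA than A549. Relative to A549 shNC, 5 of the 6 genes were higher in H358 shNC, and 76% of all genes tested differed between these controls, 39.1% being higher and 36.8% lower in H358. The groups did not overlap for the same 5 genes, against 81% of all genes, 41.9% of all being higher in H358. SPRY1 had 50.1, 49.8 and 48.7 CPM in H358 shNC, against 2.99, 2.07 and 3.90 CPM in A549 shNC. The groups lie far apart, and the difference was 16.6-fold (log2 difference 4.06, SE 0.138, adjusted p = 5.81e-15, edgeR quasi-likelihood F-test with Benjamini-Hochberg adjustment over all genes tested, used throughout). In A549 shNC, SPRY1 rested on 31 to 55 reads a library.

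SPRED1, whose germline loss causes Legius syndrome, a neurofibromatosis-like disorder, was 3.47-fold higher in H358 shNC, at 141, 147 and 166 CPM against 47.4, 43.0 and 40.3 CPM in A549 shNC (adjusted p = 1.65e-11). SPRED3, a relative that lacks a working KIT-binding domain, was 2.42-fold higher, with means of 18.1 ± 1.19 CPM in H358 shNC and 7.46 ± 1.07 CPM in A549 shNC (adjusted p = 1.59e-07). SPRY2, known for holding CBL away from the EGF receptor, was 2.14-fold higher, with means of 34.1 ± 1.09 CPM in H358 shNC and 15.9 ± 0.840 CPM in A549 shNC (adjusted p = 2.38e-09). SPRY4 was 1.28-fold higher, with means of 25.1 ± 2.58 CPM in H358 shNC and 19.7 ± 0.875 CPM in A549 shNC (adjusted p = 0.00307). SPRED2 did not pass the test, with 72.8, 74.8 and 74.7 CPM in H358 shNC and 69.7, 66.4 and 74.96 CPM in A549 shNC, ranges that overlap (log2 difference 0.08, adjusted p = 0.347). The median log2 difference of the 6 genes was 1.19, beside 0.05 for all genes tested.

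Per length, in RPKM (CPM per kilobase of exon), the order of the genes also differed between the lines. In H358 shNC the order was SPRED1 at 18.3, SPRED2 at 14.4, SPRY1 at 12.5, SPRY2 at 11.2, SPRY4 at 3.82 and SPRED3 at 3.08 RPKM, and no neighbours in it overlapped over the 3 libraries. In A549 shNC it was SPRED2 at 13.7, SPRED1 at 5.27, SPRY2 at 5.23, SPRY4 at 3.00, SPRED3 at 1.27 and SPRY1 at 0.754 RPKM, and only SPRED1 and SPRY2 overlapped. SPRED2 was thus the highest of the 6 in A549 shNC and SPRY1 the lowest, while in H358 shNC SPRY1 stood above all but the SPRED1 and SPRED2 levels. The sum over the 6 genes was 63.3 ± 1.07 RPKM in H358 shNC and 29.2 ± 1.07 RPKM in A549 shNC (SD, n = 3 each). In the control of the overexpression, EV, the order was SPRED2 at 12.03, SPRED1 at 4.98, SPRY2 at 3.98, SPRY4 at 2.99, SPRED3 at 1.78 and SPRY1 at 0.582 RPKM, the same order of genes as in A549 shNC.

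**Figure D1:**
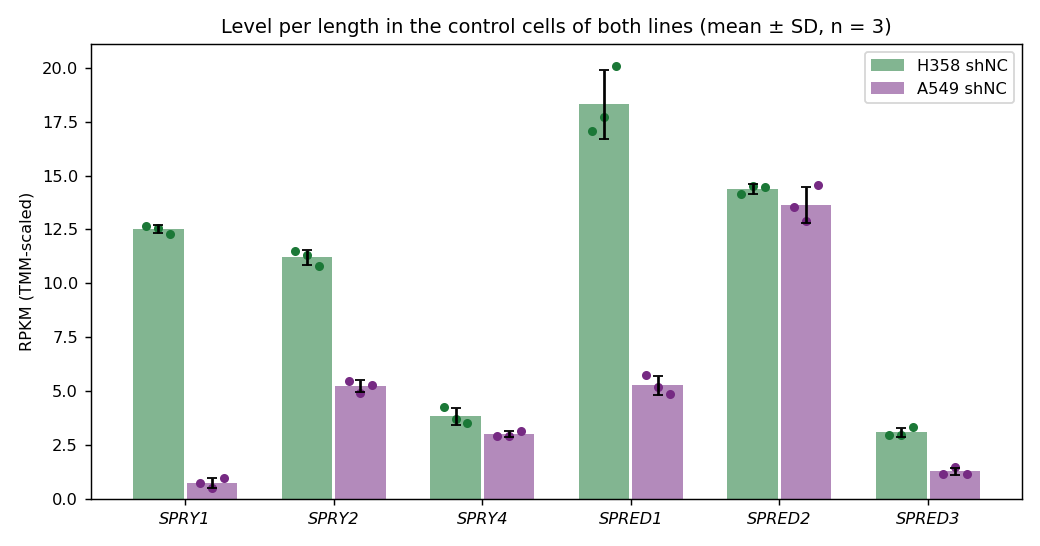
Level per length (RPKM, linear axis) of the 6 genes in H358 shNC and A549 shNC; bars are means, points the 3 libraries and error bars SD. SPRY1 stands at 12.5 RPKM in H358 shNC and 0.754 RPKM in A549 shNC, while SPRED2 stands at 14.4 RPKM in H358 shNC and 13.7 RPKM in A549 shNC.

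Depletion of RAD21 in A549 was accompanied by lower mRNA of SPRY4, SPRY2 and SPRED3. These 3 of the 6 genes fell in A549 shRAD21 relative to A549 shNC and none rose, while of all genes tested 25.2% were called, 14.4% as higher and 10.9% as lower. Without replicate 3 of A549 shRAD21, 43% of all genes tested were called, and with only the 6 A549 libraries 19.2%. All 6 fold changes were negative, with a median log2 fold change of -0.34 beside 0.0045 for all genes tested. The groups did not overlap for the same 3 genes, all lower in A549 shRAD21, against 32.7% of all genes without overlap and 14.4% without overlap and lower.

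SPRY4 had 9.73, 10.2 and 10.3 CPM in A549 shRAD21, against 19.1, 19.3 and 20.7 CPM in A549 shNC. The libraries of each group lie within a narrow band, and all 3 of A549 shRAD21 lie well below all 3 of A549 shNC. The log2 fold change was -0.97 (95% interval -1.19 to -0.75, adjusted p = 1.78e-06), and it stayed between -1.01 and -0.93 and past the threshold in all 14 alternatives run. SPRY2 had 9.48, 8.57 and 10.0 CPM in A549 shRAD21, against 16.7, 14.99 and 16.01 CPM in A549 shNC, again without overlap. Its log2 fold change was -0.76 (95% interval -0.98 to -0.55, adjusted p = 1.54e-05), with a range of -0.82 to -0.70 over 14 alternatives, all past the threshold.

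SPRED3 had 4.10, 4.89 and 5.93 CPM in A549 shRAD21, against 6.89, 8.70 and 6.80 CPM in A549 shNC. The groups did not overlap but came close, and the log2 fold change was -0.59 (SE 0.161, 95% interval -0.93 to -0.25, adjusted p = 0.0115). This call depended on single libraries: the adjusted p was 0.0746 without replicate 2 of A549 shNC and 0.0668 without replicate 1 of A549 shRAD21, with log2 fold changes of -0.47 both times.

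The other 3 genes did not pass the test in A549. SPRY1 had 2.94, 2.98 and 2.79 CPM in A549 shRAD21, against 2.99, 2.07 and 3.90 CPM in A549 shNC, and the control libraries enclose all those of the knockdown (log2 fold change -0.03, adjusted p = 0.946). At this level its 95% interval of -0.43 to 0.36 is the widest of the 6. SPRED1 had 45.1, 46.3 and 33.5 CPM in A549 shRAD21, against 47.4, 43.0 and 40.3 CPM in A549 shNC (log2 fold change -0.06, adjusted p = 0.717). The low value belongs to the library that stands apart, and with a correction for GC content and exon length the log2 fold change of SPRED1 was -0.27 with an adjusted p of 0.00261. Across all genes, log2 fold changes in A549 shRAD21 were related to GC content with Spearman's rho of -0.326. Taken relative to the mean of A549 shNC, replicates 1, 2 and 3 of A549 shRAD21 had rho of -0.433, -0.417 and 0.0997. The library that stands apart, replicate 3, thus lacked the negative trend of replicates 1 and 2. The part of this trend in the result of SPRED1 was not tested further. SPRED2 had 68.4, 66.0 and 64.5 CPM in A549 shRAD21, against 69.7, 66.4 and 74.96 CPM in A549 shNC, and the groups overlap (log2 fold change -0.08, 95% interval -0.24 to 0.07, adjusted p = 0.422). Per length the sum of the 6 genes was 24.1 ± 0.855 RPKM in A549 shRAD21 and 29.2 ± 1.07 RPKM in A549 shNC, and SPRED2 alone made up 12.9 and 13.7 RPKM of these sums.

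**Figure D2:**
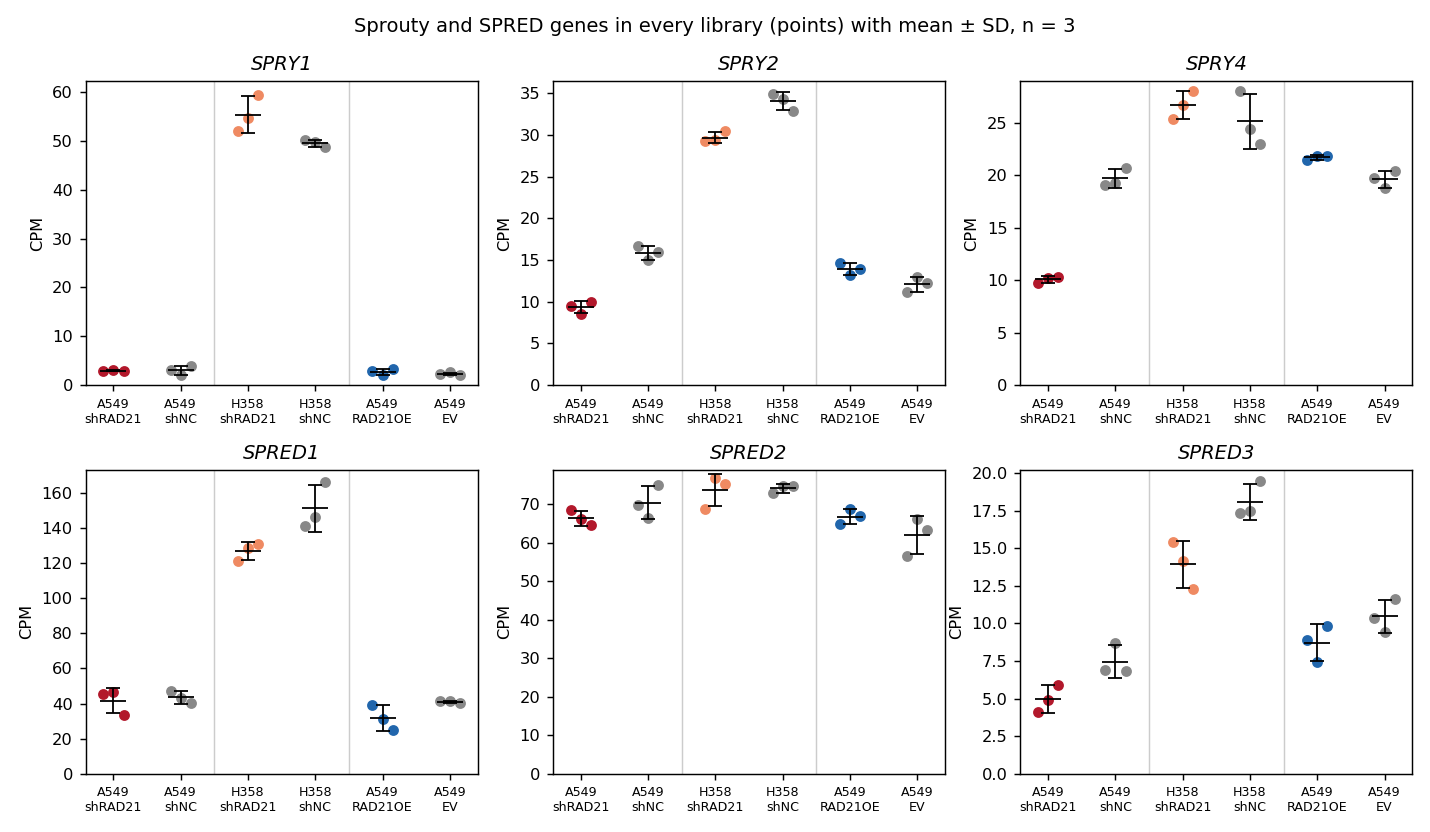
CPM (linear axes starting at 0, 1 panel a gene) of the 6 genes in every library of the 6 groups; points are libraries, horizontal lines means and error bars SD (n = 3). SPRY2 and SPRY4 show their lowest points in A549 shRAD21, at 8.57 to 10.0 and 9.73 to 10.3 CPM, while SPRED2 lies between 56.5 and 76.8 CPM in all 18 libraries.

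In H358 the knockdown left all 6 genes short of the threshold, where 8.4% of all genes tested were called, 3.78% as higher and 4.62% as lower. With any 1 of the 6 H358 libraries left out, 3.87% to 4.48% of all genes were called, and with the correction for GC content and exon length 17%. At an unadjusted p under 0.05, SPRY2, SPRED1 and SPRED3 were counted, 3 of the 6, against 22.9% of all genes. The groups did not overlap for 4 of the 6, SPRY2, SPRED1 and SPRED3 lying lower and SPRY1 higher in H358 shRAD21, against 36.1% of all genes, 18.1% being lower and 18% higher. The median log2 fold change of the 6 was -0.10, beside 0 for all genes tested.

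SPRY2 had 29.2, 29.4 and 30.5 CPM in H358 shRAD21, against 35.0, 34.4 and 32.9 CPM in H358 shNC. The groups are separate by a small gap, and the log2 fold change was -0.20 (95% interval -0.38 to -0.02, adjusted p = 0.171). SPRY4 had 25.3, 26.7 and 28.04 CPM in H358 shRAD21, against 27.98, 24.4 and 23.0 CPM in H358 shNC. These groups overlap, and the log2 fold change was 0.09 (95% interval -0.11 to 0.29, adjusted p = 0.636). SPRY1, so much higher in this line, had 52.0, 54.7 and 59.4 CPM in H358 shRAD21, against 50.1, 49.8 and 48.7 CPM in H358 shNC (log2 fold change 0.16, adjusted p = 0.369).

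SPRED1 had 121, 129 and 131 CPM in H358 shRAD21, against 141, 147 and 166 CPM in H358 shNC, with a log2 fold change of -0.25 (95% interval -0.46 to -0.05, adjusted p = 0.128). SPRED3 had 15.4, 14.2 and 12.3 CPM in H358 shRAD21, against 17.3, 17.5 and 19.5 CPM in H358 shNC. This was the largest change of the 6 in the line, with a log2 fold change of -0.37 (95% interval -0.65 to -0.10, adjusted p = 0.089). SPRED2 had 68.9, 76.8 and 75.3 CPM in H358 shRAD21, against 72.8, 74.8 and 74.7 CPM in H358 shNC, and neither group lay above the other (log2 fold change -0.01, 95% interval -0.16 to 0.14, adjusted p = 0.977). Fitted on the 6 H358 libraries alone, in which 4473 of 17215 genes were called, SPRED1 (adjusted p = 0.000532), SPRED3 (adjusted p = 0.00645) and SPRY2 (adjusted p = 0.0391) were lower and SPRY1 was higher (adjusted p = 0.0451), with log2 fold changes of -0.25, -0.37, -0.20 and 0.16. In the main fit, the H358 libraries shared their estimate of the spread with the A549 libraries of the knockdown. Per length the 3 highest genes, SPRED1 at 15.4, SPRED2 at 14.3 and SPRY1 at 13.98 RPKM, overlapped in H358 shRAD21, and the sum over the 6 was 59.8 ± 2.33 RPKM.

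The responses of SPRY2 and SPRY4 to the knockdown differed between the lines. The contrast of the fold change in H358 minus that in A549 was called for these 2 of the 6 genes, where 17.6% of all genes tested were called and 7.61% were called as higher and 9.94% as lower. Without replicate 3 of A549 shRAD21 this share was 37.5%. For SPRY4 the difference was 1.06 on the log2 scale (SE 0.141, 95% interval 0.76 to 1.35, adjusted p = 4.77e-05), and for SPRY2 it was 0.57 (SE 0.132, adjusted p = 0.00632). For SPRED3 the difference was 0.22 (adjusted p = 0.517), so its fall in A549 is not shown to differ from the change in H358. SPRY1 (0.19, adjusted p = 0.582), SPRED2 (0.08, adjusted p = 0.662) and SPRED1 (-0.19, adjusted p = 0.408) did not pass either, but SPRED1 did without replicate 3 of A549 shRAD21 (-0.32, adjusted p = 0.00367). RAD21 itself fell less in H358 than in A549, with a difference of 0.57 on the log2 scale (adjusted p = 0.00228), and the part of the unequal depletion in the unequal response was not tested.

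**Figure D3:**
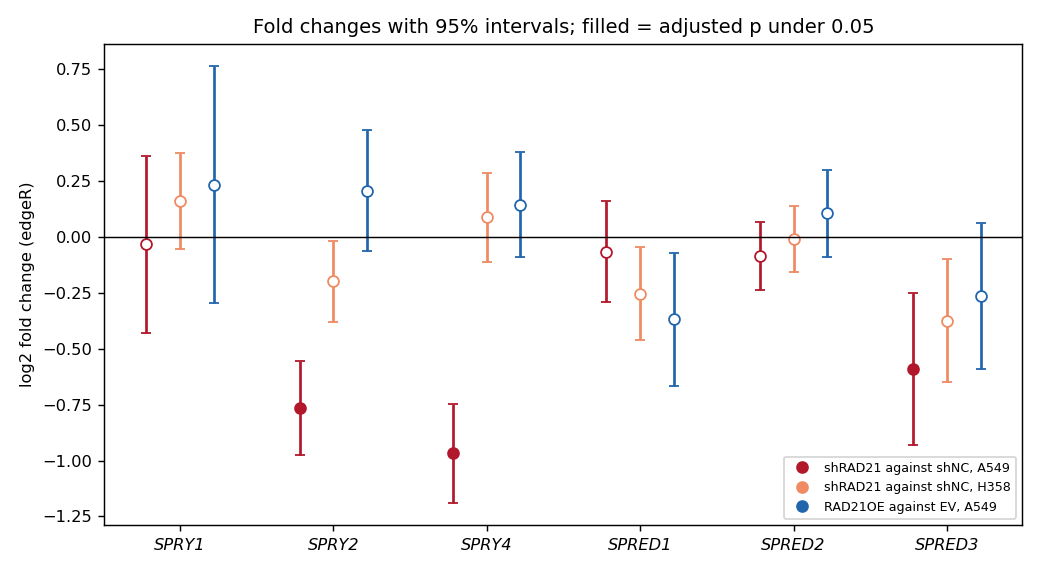
Log2 fold change of the 6 genes for shRAD21 over shNC in A549, shRAD21 over shNC in H358 and RAD21OE over EV in A549; points are estimates and bars 95% intervals. In A549 shRAD21 the intervals of SPRY4 (-1.19 to -0.75), SPRY2 (-0.98 to -0.55) and SPRED3 (-0.93 to -0.25) lie below 0.

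Overexpression of RAD21 in A549 left all 6 genes short of the threshold as well, where 27.8% of all genes tested were called, 14.1% as higher and 13.7% as lower. Without 1 of the EV libraries the share was 13.7% to 17.1%. At an unadjusted p under 0.05, SPRED1 alone was counted, 1 of the 6, against 39.9% of all genes. The groups did not overlap for 3 of the 6, SPRY2 and SPRY4 lying higher and SPRED1 lower in RAD21OE, against 45.4% of all genes, 22.9% being higher and 22.6% lower. The median log2 fold change was 0.13, beside -0.01 for all genes tested.

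SPRY4 had 21.4, 21.8 and 21.8 CPM in RAD21OE, against 19.7, 18.7 and 20.4 CPM in EV. The 3 RAD21OE libraries lie just above the highest EV library, and the log2 fold change was 0.15 (95% interval -0.09 to 0.38, adjusted p = 0.344). SPRY2 had 14.7, 13.3 and 13.9 CPM in RAD21OE, against 11.1, 13.0 and 12.2 CPM in EV, with a log2 fold change of 0.21 (95% interval -0.06 to 0.48, adjusted p = 0.239). Both upper bounds lie below the size of the estimated fall of the gene in A549 shRAD21. The overexpression and the knockdown were fitted separately, against different controls, and their fold changes were not compared by a test. RAD21 moved by 2.85 on the log2 scale in RAD21OE and by -1.08 in A549 shRAD21.

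SPRED1 had 39.4, 31.0 and 25.1 CPM in RAD21OE, against 41.3, 41.6 and 40.5 CPM in EV. The RAD21OE libraries spread widely below a tight control group, with a log2 fold change of -0.37 (95% interval -0.67 to -0.07, adjusted p = 0.0622), and the lowest value belongs to replicate 3, which stands apart. With single libraries left out, the log2 fold change of SPRED1 ran from -0.55 to -0.22. Of these fits, only that without replicate 1 of RAD21OE called it, at -0.55 with an adjusted p of 0.00273. With the correction for GC content and exon length, the log2 fold change of SPRED1 was -0.15 with an adjusted p of 0.167. Over all genes, log2 fold changes were related to GC content with Spearman's rho of 0.316. SPRED3 averaged 8.72 ± 1.21 CPM in RAD21OE and 10.5 ± 1.10 CPM in EV, and its log2 fold change of -0.26 had the sign it had in both knockdowns (adjusted p = 0.215). SPRED2 averaged 66.8 ± 1.93 CPM in RAD21OE and 62.0 ± 4.99 CPM in EV (log2 fold change 0.11, adjusted p = 0.404). SPRY1 averaged 2.71 ± 0.612 CPM in RAD21OE and 2.31 ± 0.239 CPM in EV (log2 fold change 0.23, adjusted p = 0.51).

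The remaining member of the Sprouty family, SPRY3, is not among the 6 genes and was counted with the other feedback inhibitors. It lies at chrX:155767812-155782459 on the plus strand, in the second pseudoautosomal region, and the identical copy on the Y chromosome is not a row of the tables, so how its reads were counted is uncertain. SPRY3 had 2.39, 2.35 and 1.77 CPM in A549 shRAD21, against 1.28, 1.34 and 0.850 CPM in A549 shNC, and the log2 fold change was 0.90 with an adjusted p of 0.0259, a call lost in 7 of 13 alternatives. It had 3.96, 6.76 and 5.33 CPM in H358 shRAD21, against 10.6, 8.63 and 8.80 CPM in H358 shNC, a fall of 0.80 on the log2 scale with an adjusted p of 0.0113. In words, this low-level gene lay higher in A549 shRAD21, where SPRY2 and SPRY4 lay lower. The difference between the lines was -1.70 (adjusted p = 0.00191). SPRY3 had 1.06, 1.12 and 1.09 CPM in RAD21OE, against 2.36, 2.43 and 2.57 CPM in EV, with a log2 fold change of -1.16 and an adjusted p of 0.00602. The H358 call was lost without replicate 1 of H358 shNC (adjusted p = 0.0738), without replicate 1 of H358 shRAD21 (0.0681) and without replicate 3 of H358 shRAD21 (0.0523).

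Other feedback inhibitors of the pathway numbered 14, all tested. Their calls, and those of the lists after them, stand against 25.2% of all genes called in A549 shRAD21, 8.4% in H358 shRAD21 and 27.8% in RAD21OE. In A549 shRAD21, 2 rose and 5 fell, with a median log2 fold change of -0.07. DUSP6, the phosphatase that acts on ERK in the cytoplasm, averaged 3.78 ± 0.304 CPM in A549 shRAD21 and 8.90 ± 0.324 CPM in A549 shNC (log2 fold change -1.23, adjusted p = 2.39e-07). Without strand, reads of DUSP6 cannot be told apart from those of an antisense gene that covers 40.5% of its exon bases. In H358 shRAD21, 2 of the 14 rose and 6 fell, with a median of -0.20, so feedback genes other than the 6 did pass the test in that line. DUSP5, a phosphatase that acts on ERK in the nucleus, averaged 27.9 ± 1.39 CPM in H358 shRAD21 and 46.0 ± 2.00 CPM in H358 shNC (log2 fold change -0.72, adjusted p = 1.32e-05). DUSP5 and DUSP6 fell in both lines. The log2 fold change was -0.42 for DUSP5 in A549 shRAD21 and -0.40 for DUSP6 in H358 shRAD21. Over 14 alternatives each, the adjusted p reached at most 0.0039 and 0.026. ERRFI1, which encodes the EGF receptor inhibitor MIG6, fell by 0.51 in H358 shRAD21 (adjusted p = 0.000436). It had 150.2, 141.7 and 118.5 CPM in A549 shRAD21, against 213.8, 223.7 and 231 CPM in A549 shNC. DAB2IP, a RAS GTPase-activating protein, rose in both knockdowns, by 0.62 in A549 (adjusted p = 7.81e-05) and by 0.50 in H358 (adjusted p = 0.00149). In RAD21OE, 3 of the 14 rose and 2 fell, with a median of 0.06, and DUSP5 averaged 103 ± 10.1 CPM in RAD21OE and 54.6 ± 4.84 CPM in EV (log2 fold change 0.91, adjusted p = 5.64e-05). DUSP6 was not called in RAD21OE, with a log2 fold change of 0.08 and adjusted p of 0.38 to 0.888 over 13 alternatives.

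The proteins that Sprouty and SPRED proteins bind, or that modify them, were followed as 15 genes. In A549 shRAD21, 4 rose and 4 fell, against 25.2% of all genes called, with a median log2 fold change of 0.06. Among those that rose were NEDD4, by 0.35 (adjusted p = 0.00708), and RHOA, by 0.23 (adjusted p = 0.00711), calls each lost in 1 of 14 alternatives. CAV1, encoding caveolin-1, averaged 443 CPM in A549 shRAD21 and fell by 0.75 on the log2 scale relative to A549 shNC (adjusted p = 6.01e-07). TESK1, a kinase that binds Sprouty proteins, fell by 0.66 in A549 shRAD21 (adjusted p = 0.000121) and rose by 0.57 in RAD21OE (adjusted p = 0.00298), with 15.4% of its exon bases shared with a gene on the other strand. In H358 shRAD21, 1 of the 15 was called, against 8.4% of all genes: CBLB, a ubiquitin ligase related to CBL, fell by 0.77 (adjusted p = 9.07e-05). In RAD21OE, 2 rose, TESK1 and the adaptor gene GRB2 (0.24, adjusted p = 0.0254, a call lost in 4 of 13 alternatives), against 27.8% of all genes called. NF1, the partner of the SPRED proteins, averaged 256 ± 40.9 CPM in A549 shRAD21 and 246 ± 13.3 CPM in A549 shNC, and its log2 fold changes of 0.06 in A549 shRAD21 (adjusted p = 0.687), -0.23 in H358 shRAD21 (adjusted p = 0.117) and 0.07 in RAD21OE (adjusted p = 0.561) did not pass the test.

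Upstream of the inhibitors stand the ligands and receptors. Of 10 ligand genes, 2 rose and 1 fell in A549 shRAD21, 4 fell and 0 rose in H358 shRAD21, and of the 9 tested in the overexpression 1 rose and 1 fell, against 25.2%, 8.4% and 27.8% of all genes called. AREG, encoding the EGF receptor ligand amphiregulin, was called each time, with log2 fold changes of -0.68 in A549 shRAD21 (adjusted p = 3.45e-06), -0.996 in H358 shRAD21 (adjusted p = 1.87e-07) and 0.70 in RAD21OE (adjusted p = 0.000446). The 2 ligand genes that rose in A549 shRAD21 were TGFA, by 1.43 (adjusted p = 2.24e-08), and NRG1, by 0.39 (adjusted p = 0.000403). Of 10 receptor genes, 6 rose and 2 fell in A549 shRAD21, 3 rose and 1 fell in H358 shRAD21, and 3 rose and 1 fell in RAD21OE. FGFR3 rose by 0.78 in A549 shRAD21 (adjusted p = 3.07e-05) and by 1.30 in H358 shRAD21 (adjusted p = 6.9e-06), while EGFR fell by 0.34 in A549 shRAD21 (adjusted p = 0.00176).

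Of 18 genes of the core from RAS to ERK, 6 rose and 3 fell in A549 shRAD21, 0 passed the test in H358 shRAD21, and 4 rose and 4 fell in RAD21OE, against 25.2%, 8.4% and 27.8% of all genes called. In H358 shRAD21 their median log2 fold change was -0.0012. Of 12 target genes of ERK other than the feedback inhibitors, 2 rose and 7 fell in A549 shRAD21, with a median of -0.33, 0 rose and 2 fell in H358 shRAD21, with a median of -0.16, and 6 rose and 0 fell in RAD21OE, with a median of 0.22. FOSL1, an AP-1 subunit, rose by 1.34 in RAD21OE (adjusted p = 8.97e-05), and EPHA2, an ephrin receptor, by 0.57 (adjusted p = 0.000459), a comparison in which SPRY2 and SPRY4 did not pass the test. ETV5, an ETS factor of the PEA3 group, fell by 0.33 in H358 shRAD21 (adjusted p = 0.00997), a call lost in 4 of 14 alternatives.

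Cohesin forms chromatin loops, so the nearest tested protein-coding genes on either side of each of the 6 were also read. SPRY4 lies 156 kb from NDFIP1 and 266 kb from FGF1, and neither passed the test in either knockdown (NDFIP1 in A549 shRAD21 0.09, adjusted p = 0.351). FGF1 averaged only 0.063 CPM in A549 shRAD21 and 0.109 CPM in A549 shNC, too low for the test to decide in that line. SPRY2 lies 780 kb from NDFIP2, which rose by 0.53 in A549 shRAD21 (adjusted p = 0.000276), opposite to SPRY2. On its other side the nearest tested gene was SLITRK6, at a distance of 5450 kb, which fell in all 3 comparisons, by 3.74 in A549 shRAD21, by 0.58 in H358 shRAD21 and by 1.84 in RAD21OE (adjusted p = 1.49e-07, 0.00183 and 0.000273). In A549 these values rest on low levels, with means of 0.191 CPM in A549 shRAD21 and 2.64 CPM in A549 shNC. The means were 1.93 CPM in RAD21OE and 6.96 CPM in EV. NDFIP1 and NDFIP2 are related genes that encode adaptors of NEDD4-type ubiquitin ligases, and they stand beside SPRY4 and SPRY2.

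SPRED3 lies 0.339 kb from GGN and 3.55 kb from FAM98C. GGN had log2 fold changes of -0.49 in A549 shRAD21 (adjusted p = 0.144), -0.04 in H358 shRAD21 (adjusted p = 0.972) and 0.40 in RAD21OE (adjusted p = 0.228), while FAM98C rose by 0.47 in RAD21OE (adjusted p = 0.0133), a call lost in 2 of 13 alternatives. SPRED1 lies 96.9 kb from FAM98B, a relative of FAM98C, and 1150 kb from MEIS2, which had a log2 fold change of -0.35 in RAD21OE (adjusted p = 0.049), a call lost in 10 of 13 alternatives with adjusted p up to 0.192. SPRED2 lies 1000 kb from MEIS1, a relative of MEIS2 that did not pass the test in any of the 3 comparisons, and 39.6 kb from ACTR2, which rose by 0.23 in A549 shRAD21 (adjusted p = 0.00822), a call lost in 2 of 14 alternatives. SPRY1 lies 77.3 kb from SPATA5, not called in any of the 3 comparisons, and 1260 kb from ANKRD50, which rose by 0.38 in A549 shRAD21 (adjusted p = 0.00894) and fell by 0.43 in H358 shRAD21 (adjusted p = 0.00794), calls lost in 3 and in 1 of 14 alternatives.

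The genes most like each of the 6 over the 18 libraries were named by Pearson's r of log2 CPM, each library taken relative to the control mean of its line and table, among 10721 other protein-coding genes of at least 4 CPM. The libraries of a table share a batch label and fall into groups, and they differ in depth and in their trend on GC content. For these reasons r is a description. Genes chosen by r follow a member's pattern by selection, so their fold changes given here are a description too. Nearest to SPRY4 were CSF1 (r = 0.98), encoding macrophage colony-stimulating factor, RAP1GAP2 (r = 0.976) and ENC1 (r = 0.973). All 3 fell strongly in A549 shRAD21, with log2 fold changes of -1.64, -1.92 and -0.76, and lay near 0 in H358 shRAD21, at 0.15, -0.06 and 0.08. Nearest to SPRY2 were HAS3 (r = 0.979), a hyaluronan synthase, MAFF (r = 0.976), a small MAF transcription factor, and ITGB5 (r = 0.973), an integrin subunit. Their log2 fold changes were -2.11, -1.56 and -1.25 in A549 shRAD21 and 0.78, 0.41 and 0.23 in RAD21OE. There the MAFF call was lost in 8 of 13 alternatives, and ITGB5 was not called in the main fit.

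Nearest to SPRED1 were TMEM161B (r = 0.948), TMEM123 (r = 0.944) and RPRD1A (r = 0.939), with GC contents of 34.5%, 39.2% and 38.3%, low like the 38.9% of SPRED1. Nearest to SPRED3 were TMSB10 (r = 0.88), GADD45A (r = 0.872) and PRX (r = 0.868), each with a negative log2 fold change in all 3 comparisons as SPRED3 had. For GADD45A, a gene induced by DNA damage and other stress, these were -0.60 in A549 shRAD21, -0.32 in H358 shRAD21 and -0.33 in RAD21OE. The GADD45A call was lost in 7 of 14 alternatives in H358 shRAD21 and in 4 of 13 in RAD21OE. Nearest to SPRED2 were TNRC6A (r = 0.86), ITPR1 (r = 0.854) and GSPT2 (r = 0.807). SPRY1, with means of 2.31 to 2.99 CPM in the A549 groups, was compared with 10722 genes and had no gene above r = 0.746, the value of ARID1B.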

How the data were processed

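Per the labels' protocols, RNA came from a TRIzol extraction and libraries from a Vazyme kit. The authors deposited raw read counts for each gene, in separate tables for the knockdown (12 libraries) and the overexpression (6 libraries), which the labels put in separate batches. Tools named in the submitters' processing notes were featureCounts 1.5.0-p3, HISAT2 2.0.5 and fastp, with hg38 as build and no role or order; strandedness is not stated. All 58735 genes of the tables equal GENCODE 29 in position, strand and exon length, and 0 count columns were left without a sample.

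Each table was fitted alone with 1 mean per group in edgeR 4.0.16 (R 4.3.3): filterByExpr (18939 and 15462 genes tested), TMM, quasi-likelihood F-test, two-sided, Benjamini-Hochberg over all genes tested. For each gene, the groups of a table shared 1 estimate of the spread. Called, higher, lower, rose and fell mean an adjusted p under 0.05. SE is the absolute log2 fold change over the square root of F. Comparisons were shRAD21 over shNC in each line, RAD21OE over EV, the difference between the knockdowns (H358 minus A549), and H358 shNC over A549 shNC. The knockdowns and the comparison of controls share control libraries. RPKM used the deposited exon length. Figures were drawn with matplotlib 3.10.9. The tests were tried on simulated counts.

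Settings tried besides were no filter, DESeq2's size factors, at least 10 CPM in 3 libraries, DESeq2 1.42.0's Wald test, limma-voom (limma 3.58.1), the replicate block, only the 6 libraries of a line, a correction of GC content and exon length by splines with 5 degrees of freedom, and each library left out. The members, the lists and these alternatives were chosen with earlier results of these data known. Named genes are the 6 members, RAD21, up to 2 genes of each list that rose and 2 that fell with the smallest adjusted p in a comparison, the 3 genes most like each member and the nearest tested protein-coding genes. NF1 and SPRY3 were given in every comparison after their values were seen, and of the genes the rule names, some are not reported here. Replicate 1, 2 and 3 of a group had no number-wise pairing with those of its control (correlation of deviations -0.0369 to 0.0674).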

Additional observations from a re-analysis of the deposited data

Results flagged for a closer look

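The response of SPRY4 to RAD21 knockdown differed between the lines by 1.06 on the log2 scale (H358 minus A549, adjusted p = 4.77e-05 by edgeR), with means of 26.7 CPM in H358 shRAD21 and 25.1 CPM in H358 shNC, and of 10.1 CPM in A549 shRAD21 and 19.7 CPM in A549 shNC. That of SPRY2 differed by 0.57 (adjusted p = 0.00632), with means of 29.7 CPM in H358 shRAD21 and 34.1 CPM in H358 shNC, and of 9.36 CPM in A549 shRAD21 and 15.9 CPM in A549 shNC. Both passed the test of the difference between the knockdowns, and the depletion of RAD21 differed between the lines as well.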

How the results depend on the processing

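After knockdown in A549, 3 genes were called, and 2 to 4 in the alternatives (2 to 3 with a library left out). After knockdown in H358, 0 were called: 1 with no filter on low counts (SPRED1), 1 with limma-voom (SPRED3), 3 with the correction for GC content and exon length (SPRY2, SPRED1 and SPRED3), 4 with only the 6 libraries of the line, and 0 with any library left out. After overexpression, 0 were called: 1 each with no filter, with at least 10 CPM in 3 libraries (4 of the 6 genes tested), with limma-voom and with the replicate block (SPRED1 each time), 1 with the GC and length correction (SPRED3, adjusted p = 0.0463), and 0 to 1 with a library left out. The difference between the knockdowns kept 2 to 3 calls and the comparison of controls 5 in every alternative. With the replicate block the counts were 3, 0, 1, 2 and 5 in these comparisons. TMEM123, not called in A549 shRAD21, was called lower with the GC and length correction (-0.11, adjusted p = 0.0473), and that correction moved the median of all genes between the controls to -0.12, against 0.05 without it. The cause of these changes was not tested. At 1 to 3 CPM, as for SPRY1 and SPRY3 in A549, the depth limits what could be detected.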
